A study of Mus musculus with 20 samples.

Results

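Red cell genes were examined in RNA-seq libraries of the mouse temporomandibular joint (TMJ), the joint between lower jaw and skull. The set held 9 genes of the 54532 in the count table, chosen by name. They comprised 4 adult globin genes (*Hba-a1*, *Hba-a2*, *Hbb-bs* and *Hbb-bt*), whose transcripts persist in circulating reticulocytes, and 5 genes used by erythroid precursors in the marrow (*Alas2*, *Slc4a1*, *Epb42*, *Klf1* and *Gata1*). This division was fixed by name. Whether transcripts of the 5, such as *Alas2*, came from marrow or from retained blood was not tested. All 9 were found in the table, and each was read in all 20 libraries.

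The tissue was the condylar head, the cartilage-capped end of the lower jaw, taken with part of the bone beneath the cartilage, so that marrow could be present. All animals carried *Loxl2* with loxP sites on both alleles and Acan-CreERT2, a Cre recombinase driven by the aggrecan (*Acan*) promoter of cartilage cells that tamoxifen activates. Male and female mice aged 6 months at the first injection received vehicle (8 control libraries) or tamoxifen at 75 mg per kg (12 libraries labelled knockout), with collection 4 months later. The controls therefore carried both alleles and the Cre but no drug, and the drug and the deletion cannot be told apart. *Loxl2* itself, which encodes a collagen-crosslinking enzyme, was 64.5 CPM ± 30.9 (SD, n = 8) in control against 101 CPM ± 26.9 (SD, n = 12) in those labelled knockout. edgeR estimated its log2 fold change at 0.64 (SE 0.28, adjusted p = 0.101). These counts cover the whole gene and do not show whether the part between the loxP sites was removed. Every direction below follows the labels.

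Red cells form in the marrow from precursors that switch on GATA1 and then KLF1, a pair of DNA-binding proteins that activate globin and haem genes. Haem is built from glycine by a pathway whose first enzyme in erythroid cells is ALAS2, and it is joined to alpha and beta globin chains to give haemoglobin. Mature red cells have no nucleus, and the youngest of them, the reticulocytes, carry leftover globin mRNA into the blood. Blood retained in a tissue can thus give globin counts without the transcripts of earlier precursors, whereas marrow can give both. In bulk RNA, fewer cells of a type and less RNA per cell cannot be told apart.

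The regulatory letters shared by these genes are shown first, because the globins, *Alas2* and *Klf1* are compared below for how closely their levels followed one another. Promoters of 8 of the 9 genes were in the RefSeq table (GRCm38.p6), and the 120 bases before the RefSeq start are printed for 6 of them, 5′ to 3′ on the coding strand. Capitals mark letters that match a GATA motif (AGATAA or TGATAA), a KLF motif (CCNCNCCC) or CCAAT on either strand, and overlapping matches run together.
Hba-a1 (chr11:32283552-32283671, plus strand): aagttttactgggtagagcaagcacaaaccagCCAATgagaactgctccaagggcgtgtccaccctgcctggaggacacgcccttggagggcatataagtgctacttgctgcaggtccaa
Hba-a2 (chr11:32296372-32296491, plus strand): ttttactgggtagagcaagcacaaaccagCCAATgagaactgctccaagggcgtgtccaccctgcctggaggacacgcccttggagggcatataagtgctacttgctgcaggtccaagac
Hbb-bs (chr7:103827929-103828048, minus strand): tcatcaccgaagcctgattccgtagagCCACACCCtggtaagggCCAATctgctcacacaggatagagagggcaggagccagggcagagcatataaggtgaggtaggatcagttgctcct
Hbb-bt (chr7:103813924-103814043, minus strand): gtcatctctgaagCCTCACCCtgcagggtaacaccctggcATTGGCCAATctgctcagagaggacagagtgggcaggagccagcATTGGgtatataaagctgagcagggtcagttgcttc
Alas2 (chrX:150547297-150547416, plus strand): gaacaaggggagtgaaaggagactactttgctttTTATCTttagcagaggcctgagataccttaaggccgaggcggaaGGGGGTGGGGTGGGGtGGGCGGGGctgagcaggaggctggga
Klf1 (chr8:84901862-84901981, plus strand): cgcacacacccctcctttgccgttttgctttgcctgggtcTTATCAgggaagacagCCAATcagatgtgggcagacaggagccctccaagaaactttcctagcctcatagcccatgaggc

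The windows of *Hba-a1* and *Hba-a2* share a run of 117 bases, so the alpha globin pair presents almost the same letters, whereas the longest run shared by *Hbb-bs* and *Hbb-bt* is 14 bases. A KLF match stands at position -93 from the start of *Hbb-bs* and at -107 in *Hbb-bt*. The GATA match of *Alas2* lies at -86 and that of *Klf1* at -80. Searched from 250 bases before to 50 after the start, GATA letters were also found at -183 in *Hba-a1*, at -186 in *Hba-a2* and at -210 in *Hbb-bs*, outside the printed stretch. Among 32851 mouse promoters of the same length, 18.6% held a GATA match, 49.5% a KLF match and 37.4% CCAAT, so single matches are common. They describe the letters of the window and show no binding. The start is that of RefSeq, and the printed stretches of *Hba-a1* and *Hbb-bs* lie inside the longer gene spans of GENCODE given next.

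The coding parts of each globin pair are close copies as well. *Hba-a1* (ENSMUSG00000069919, chromosome 11, 32283511 to 32284465, GRCm38/mm10) and *Hba-a2* (ENSMUSG00000069917, chromosome 11, 32296489 to 32297298) differ at 1 of 429 coding bases and share a run of 380. *Hbb-bs* (ENSMUSG00000052305, chromosome 7, 103826534 to 103828096) and *Hbb-bt* (ENSMUSG00000073940, chromosome 7, 103812524 to 103813996) differ at 1 of 444 and share a run of 416. How reads that match both copies were counted is not given in the sources used here. The division of counts within a pair is therefore uncertain. The total of a pair would be too low if such reads were left out, and the globin levels and ratios below carry this limit.

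Library totals ran from 11153820 to 27045668 counts, with medians of 17783724 in control and 20124403 in the libraries labelled knockout. The floor of 3 counts corresponded to 0.111 to 0.269 CPM, for counting error only. CPM values are counts relative to library sizes that were scaled by the TMM method. Control replicate 6 stood apart before any comparison, because it was the highest control library for all 9 genes. It also had the highest mitochondrial share of the control libraries (23.1%, against 15.2% to 19.7% in the others). Control replicate 8 stood apart in its tissue markers, with 100.4 CPM summed over 6 cartilage genes, against 1443 to 3141 CPM in the other controls, and the highest sum of 6 skeletal muscle genes (137697 CPM). Its *Hba-a1* and *Hbb-bs* levels were the lowest of the control libraries.

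Levels of different genes were compared per length, as TPM, in which counts are divided by annotated exon length and brought to one total per library. In control the order of the medians was *Hbb-bs* (541 TPM), *Hba-a1* (513 TPM), *Hbb-bt* (58.8 TPM), *Hba-a2* (37.6 TPM), *Alas2* (8.02 TPM), *Slc4a1* (2.13 TPM), *Klf1* (0.989 TPM), *Epb42* (0.223 TPM) and *Gata1* (0.173 TPM). *Hbb-bs* and *Hba-a1* were each above 99.7% of the genes in the table, whereas *Gata1* was above 66.7%. The leading pair was not separated, since *Hbb-bs* exceeded *Hba-a1* in 5 of 8 control libraries.

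Several other steps of that order held in every control library: *Hba-a1* was above *Hbb-bt*, *Hba-a2* above *Alas2*, *Alas2* above *Slc4a1* and *Klf1* above *Epb42* in 8 of 8. The remaining neighbours overlapped, with *Hbb-bt* above *Hba-a2* in 6 of 8, *Slc4a1* above *Klf1* in 6 of 8 and *Epb42* above *Gata1* in 4 of 8. In the libraries labelled knockout the medians were 367 TPM for *Hba-a1*, 361 TPM for *Hbb-bs*, 36.8 TPM for *Hbb-bt*, 27.7 TPM for *Hba-a2*, 5.70 TPM for *Alas2*, 1.18 TPM for *Slc4a1*, 0.859 TPM for *Klf1*, 0.200 TPM for *Gata1* and 0.0962 TPM for *Epb42*. The order was the same apart from the first pair and the last pair, and *Hba-a1* exceeded *Hbb-bs* in 7 of 12 libraries there.

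The alpha globins were detected in every library. *Hba-a1* had 199, 188, 423, 183, 151, 511, 448 and 112 CPM in control replicates 1 to 8. In the libraries labelled knockout, replicates 1 to 12 had 129, 333, 266, 76.5, 71.8, 103, 60.1, 196, 146, 146, 201 and 277 CPM. Control replicates 3, 6 and 7 lay above every library labelled knockout, and 4 libraries labelled knockout lay below every control, while the remaining values overlapped.

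*Hba-a2*, the second alpha globin copy, was far less abundant in the counts and more uneven. Its control values were 5.71, 4.88, 50.3, 11.8, 13.1, 112, 26.9 and 10.5 CPM. The values of replicates 1 to 12 labelled knockout were 9.08, 33.3, 15.2, 6.67, 7.03, 9.75, 2.08, 21.1, 9.60, 13.3, 7.94 and 3.44 CPM. The highest library held 54.0 times the level of the lowest, against 8.5 times for *Hba-a1*, and control replicates 3 and 6 were the only libraries above the highest one labelled knockout.

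Of the beta globins, *Hbb-bs* had more of the deposited counts. Its levels in control replicates 1 to 8 were 142, 138, 441, 256, 173, 541, 222 and 107 CPM. Those labelled knockout gave 194, 347, 279, 67.9, 82.1, 82.3, 42.4, 159, 141, 121, 158 and 189.9 CPM. Although 10 of 12 libraries labelled knockout were below the control median of 198 CPM, the ranges overlapped, with 2 control libraries above all of the others and 4 libraries labelled knockout below every control.

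*Hbb-bt*, the beta globin with fewer counts, had 21.7, 12.6, 39.6, 16, 24.0, 121, 13.5 and 14.5 CPM in control. Libraries labelled knockout ran from 9.68 to 47.3 CPM with a median of 12.9 CPM, and 9 of 12 lay below the control median of 18.8 CPM. Control replicate 6 alone exceeded the highest of them, and the next control library had 39.6 CPM.

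**Figure D1:**
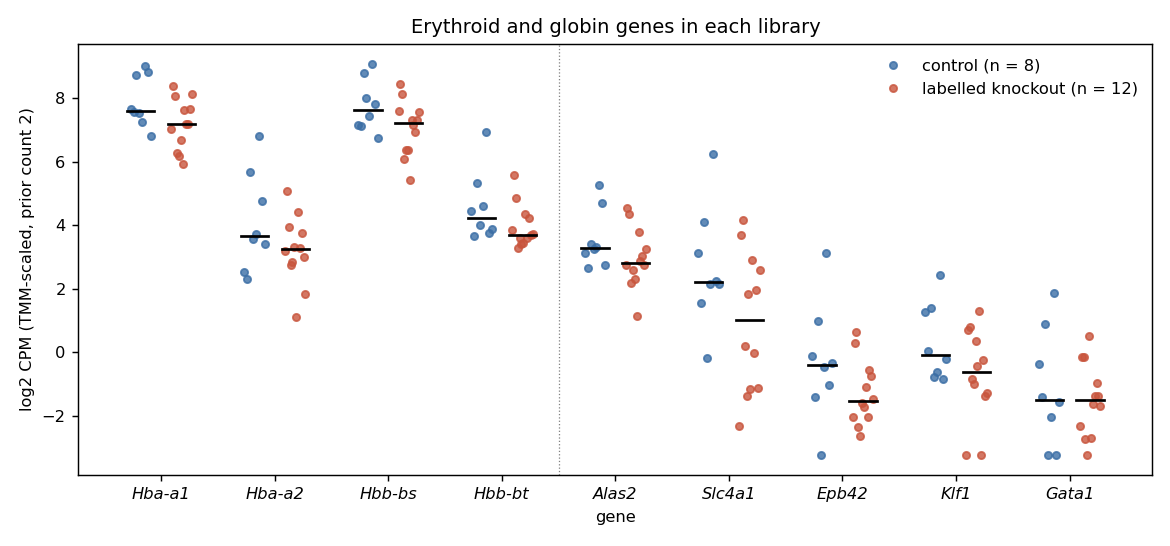
Level of each gene (log2 CPM, TMM-scaled, prior count 2) in the 8 control libraries (blue) and the 12 libraries labelled knockout (red), with the group median as a black line. A dotted line separates the 4 globin genes from the 5 precursor genes. The groups overlap for every gene, and the highest control point is replicate 6 throughout.

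In the deposited counts, the adult globins together made up a very small share of each library. Reads that match both copies of a pair may be missing from these counts, so the share may be too low. The 4 genes took 0.0556% ± 0.0325 (SD, n = 8) of the counts in control, from 0.0175% to 0.112%, against 0.0368% ± 0.0210 (SD, n = 12) in those labelled knockout, from 0.0128% to 0.0875%. The ranges overlapped over most of their length. Outside the mitochondrial genome, whose share was 17.8% ± 2.78 (SD, n = 8) and 13.6% ± 3.03 (SD, n = 12), the globin share was 0.0685% ± 0.0421 (SD, n = 8) and 0.0424% ± 0.0235 (SD, n = 12).

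Alpha and beta globin counts stayed near balance. The summed alpha counts were 1.13 times the beta counts ± 0.407 (SD, n = 8) in control against 1.07 times ± 0.202 (SD, n = 12) in those labelled knockout, and all 20 libraries lay between 0.660 and 2.02. Control replicate 7 gave the highest value. The coefficient of variation (CV) of this ratio over all libraries was 26.8%, against 61.2% for the globin share itself.

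Division within each pair of copies was less steady. *Hba-a1* had 35.0, 38.6, 8.40, 15.5, 11.5, 4.56, 16.7 and 10.7 times the counts of *Hba-a2* in control replicates 1 to 8. Among the libraries labelled knockout the ratio was 9.29 to 29.0 except in replicate 12, where it was 80.5, with a median of 12.8. Control replicate 6 thus had the lowest ratio and replicate 12 labelled knockout the highest. The ratio of *Hbb-bs* to *Hbb-bt* ran from 4.47 (control replicate 6) to 16.5 (control replicate 7) in control and from 3.94 to 14.6 in the libraries labelled knockout, with a CV of 39.0% over all 20 libraries against 88.4% for the alpha pair. Reads that match both copies were not resolved here, so these ratios describe the deposited counts rather than transcripts.

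Embryonic globins were at or near 0. No library had a count of *Hbb-bh1* or *Hbb-bh2*, and *Hba-x* and *Hbb-y* had at most 1 count. The theta-like genes *Hbq1a* and *Hbq1b* had at most 6 and 13 counts, both in control. None of these 6 genes had counts enough to be tested.

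Among the precursor genes, *Alas2* (ENSMUSG00000025270, chromosome X, 150547375 to 150570638, plus strand), the erythroid enzyme that starts haem synthesis, was the most abundant. Its control levels were 8.63, 6.14, 10.6, 9.42, 9.88, 38.6, 25.8 and 6.58 CPM. The libraries labelled knockout had 6.63, 23.0, 20.1, 4.43, 5.96, 4.84, 2.12, 13.7, 7.26, 8.03, 6.59 and 9.41 CPM. Of these, 9 of 12 were below the control median, and control replicates 6 and 7 were above all of them. The exons of *Alas2* overlap 311 bases of *Apex2* and a microRNA gene on the other strand, and without stated use of strand their reads cannot be told apart.

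*Alas2* had a similar mean level relative to *Hbb-bs* in both groups. It had 59.1 counts per 1000 counts of *Hbb-bs* ± 27.7 (SD, n = 8) in control against 59.6 ± 14.7 (SD, n = 12) in those labelled knockout, so the group means of this ratio differed by far less than the spread. All libraries lay between 24.0 and 116.

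*Slc4a1* (ENSMUSG00000006574, chromosome 11, 102348824 to 102366203, minus strand), which encodes the band 3 anion exchanger of the red cell membrane, had values spread over a wide range. In control it had 8.67, 2.80, 16.9, 0.775, 4.36, 75.4, 4.66 and 4.36 CPM. Libraries labelled knockout had 0.0927, 12.9, 17.8, 1.05, 0.281, 3.43, 0.346, 7.39, 0.872, 3.77, 0.354 and 5.92 CPM. The lowest of these, replicate 1, held 2 counts, under the floor, although its *Hbb-bs* level of 194 CPM was above that of 4 control libraries. Control replicate 6 was above every library labelled knockout, and 4 of the latter were below every control.

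Per 1000 counts of *Hbb-bs*, *Slc4a1* therefore ranged from 0.477 in replicate 1 labelled knockout to 139 in control replicate 6. Its mean was 43.6 ± 42.3 (SD, n = 8) in control against 24.0 ± 20.8 (SD, n = 12) in those labelled knockout. The CV of this ratio was 97.0% in control and 86.8% in the libraries labelled knockout, whereas that of the *Alas2* ratio was 47.0% and 24.7%.

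**Figure D2:**
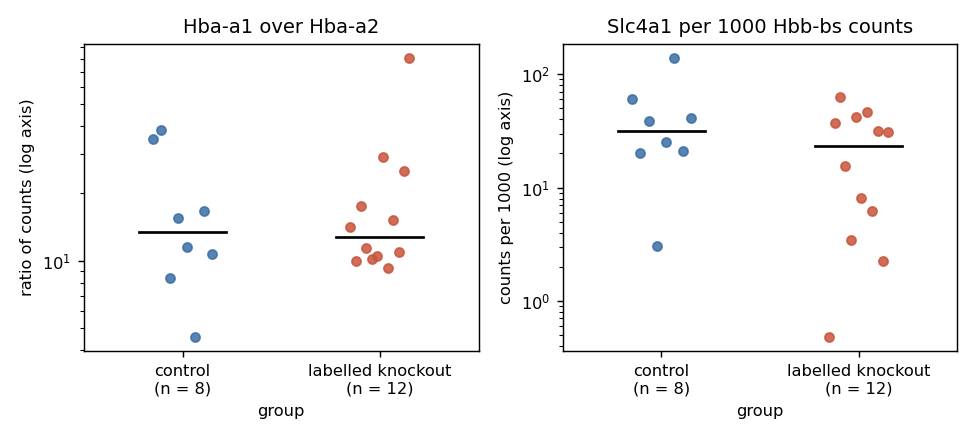
Counts of *Hba-a1* over counts of *Hba-a2* (left) and counts of *Slc4a1* per 1000 counts of *Hbb-bs* (right) in each library, on log axes, with group medians as black lines. The alpha globin ratio is lowest in control replicate 6 (4.56) and highest in replicate 12 labelled knockout (80.5), and the *Slc4a1* ratio spans 0.477 to 139.

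*Epb42* (ENSMUSG00000023216, chromosome 2, 121017891 to 121037072, minus strand), the gene of protein 4.2, which ties band 3 to the membrane skeleton, was near the floor. Control libraries had 22, 5, 32, 0, 9, 124, 6 and 9 counts. The libraries labelled knockout had 3, 35, 29, 2, 1, 6, 4, 5, 3, 7, 7 and 5 counts, and 10 of 12 lay below the control median of 0.651 CPM. In all, 5 of 20 libraries were at or under 3 counts. *Epb42* did not pass the filter on low counts.

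*Klf1* (ENSMUSG00000054191, chromosome 8, 84901928 to 84905291, plus strand), the erythroid factor that binds globin promoters, had 61, 17, 43, 8, 8, 77, 7 and 10 counts in control. In the libraries labelled knockout the counts were 0, 47, 33, 10, 7, 31, 13, 32, 0, 9, 4 and 6. Replicates 1 and 9 labelled knockout thus held none, while their *Hbb-bs* levels were 194 and 141 CPM. The floor of 3 counts stood at 0.139 and 0.138 CPM in these libraries. Levels reached 5.32 CPM in control and 2.34 CPM in the libraries labelled knockout.

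*Gata1* (ENSMUSG00000031162, chromosome X, 7959260 to 7978071, minus strand), which erythroid cells share with megakaryocytes, mast cells and eosinophils, had low counts throughout. Its counts were 18, 5, 30, 0, 2, 51, 0 and 3 in control and 2, 25, 16, 1, 0, 35, 1, 3, 6, 5, 4 and 4 in the libraries labelled knockout. No more than 3 counts were found in 9 of 20 libraries, against 5 of 20 for *Epb42*, and 6 of 12 libraries labelled knockout lay on each side of the control median. *Gata1* did not pass the filter either.

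The comparison of the groups asked whether red cell transcripts differed between the libraries labelled knockout and control. edgeR's quasi-likelihood test called 23% of the 15984 tested genes at an adjusted p under 0.05, and 11% as lower in the libraries labelled knockout. It called none of the 7 tested red cell genes, of which 3 had an unadjusted p under 0.05 (*Hba-a1*, *Hba-a2* and *Hbb-bt*). All 7 estimates were below 0, with a median log2 fold change of -0.90 against -0.02 over all tested genes. The 7 genes vary together, as described below, so their common sign is not that of 7 independent measurements.

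For the globins, the log2 fold change (libraries labelled knockout minus control) was -0.73 (SE 0.33, 95% interval -1.42 to -0.03, adjusted p = 0.118) for *Hba-a1* and -1.34 (SE 0.53, 95% interval -2.45 to -0.24, adjusted p = 0.0717) for *Hba-a2*. It was -0.70 (SE 0.35, 95% interval -1.43 to 0.03, adjusted p = 0.152) for *Hbb-bs* and -0.90 (SE 0.40, 95% interval -1.74 to -0.06, adjusted p = 0.109) for *Hbb-bt*. The 4 globin intervals overlapped one another.

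The 3 tested precursor genes were not called either. *Alas2* had a log2 fold change of -0.63 (SE 0.40, 95% interval -1.47 to 0.21, adjusted p = 0.269). *Slc4a1* gave -1.70 (SE 0.82, 95% interval -3.41 to 0.01, adjusted p = 0.138) and *Klf1* -1.07 (SE 0.64, 95% interval -2.41 to 0.27, adjusted p = 0.233). The biological CV between libraries was 120% for *Slc4a1*, above 98.9% of all tested genes, and 51.0% for *Hba-a1*, the lowest of the 7, still above 82.2% of them. With no filter on low counts, edgeR gave -1.91 (SE 0.71, adjusted p = 0.0913) for *Epb42* and -1.07 (adjusted p = 0.392) for *Gata1*.

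The DESeq2 Wald test, which the study used, called 1 of the 9 genes, *Epb42*, at -1.96 (SE 0.70, adjusted p = 0.0287), and 4 had an unadjusted p under 0.05. Of the 18767 genes to which it gave an adjusted p, it called 22.5%. For *Hbb-bt* it gave -0.18 (adjusted p = 0.707) in place of -0.90. The DESeq2 test was not repeated without control replicate 6, so the dependence of the *Epb42* call on that library was not measured. edgeR gave no estimate of *Epb42* there, because the gene did not pass its filter. That library held 124 counts of *Epb42*, against 32 in the next control library. Control replicate 6 decided much of the size of the 7 edgeR estimates. Without it, edgeR gave -0.53 for *Hba-a1*, -0.59 for *Hba-a2*, -0.43 for *Hbb-bs*, -0.20 for *Hbb-bt*, -0.22 for *Alas2*, -0.41 for *Slc4a1* and -0.52 for *Klf1*, with adjusted p from 0.281 to 0.746. Without control replicate 8 the 7 estimates ran from -1.81 (*Slc4a1*) to -0.72 (*Alas2*), with adjusted p from 0.0728 to 0.250.

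**Figure D3:**
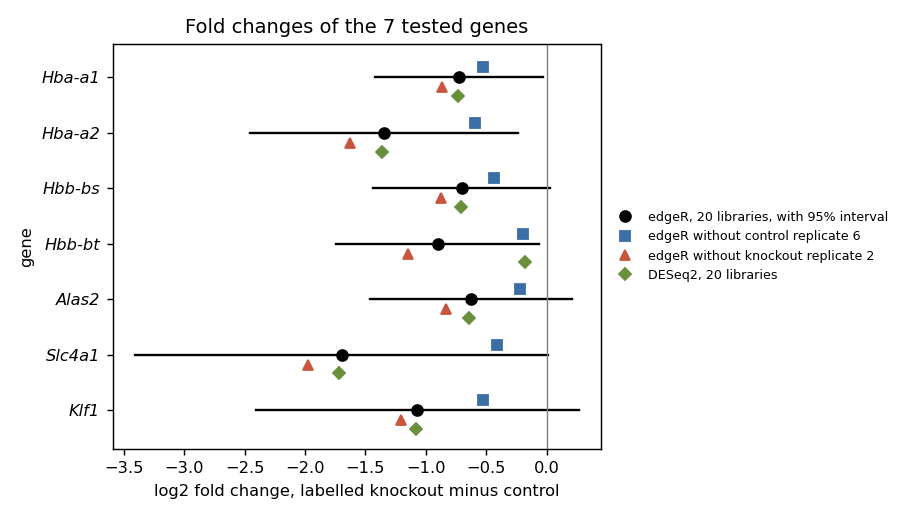
Log2 fold change (libraries labelled knockout minus control) of the 7 tested genes by edgeR with its 95% interval (black), by edgeR without control replicate 6 (blue squares), by edgeR without knockout replicate 2 (red triangles) and by DESeq2 (green diamonds). All values lie below 0, and those without control replicate 6 lie between -0.59 and -0.20.

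Leaving out control replicate 1, 2, 4 or 7, or knockout replicate 2, brought 1 or 2 genes past the threshold. No other omission of a single library did so. *Hba-a2* passed without control replicate 1 (adjusted p = 0.0419), without control replicate 2 (0.0451) and without knockout replicate 2 (0.0345) by edgeR, and *Hbb-bt* passed without knockout replicate 2 (-1.15, adjusted p = 0.0381). *Epb42* entered the test and passed without control replicate 2, 4 or 7, all of them edgeR fits that kept control replicate 6. Its log2 fold changes were -2.07, -2.10 and -2.08, with adjusted p of 0.0456, 0.0344 and 0.0496. It also entered without control replicate 8 and did not pass there (-2.02, adjusted p = 0.0691). Knockout replicate 2 was the highest of its group for all 4 globins and *Alas2*.

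How closely the genes followed one another was examined within each group, in log2 CPM over libraries, with 22 relations adjusted together by the Benjamini-Hochberg method. In the libraries labelled knockout, *Hbb-bs* followed *Hba-a1* with Pearson r = 0.93 (permutation p = 1e-05, the smallest that 100000 resamples can give, adjusted 0.00022) and Spearman rho = 0.87 (permutation p = 0.00058, adjusted 0.00638). It followed *Alas2* with r = 0.92 (permutation p = 4e-05, adjusted 0.00044) and rho = 0.87 (permutation p = 0.00039, adjusted 0.00638). With the 2 libraries most distant from the *Hbb-bs* median omitted, r was 0.88 and 0.81.

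In control the same relations rested on fewer libraries. *Hbb-bs* and *Hba-a1* had r = 0.83 (exact permutation p = 0.0124, adjusted 0.0439) and rho = 0.69 (exact permutation p = 0.0694, adjusted 0.170), and r = 0.60 without the 2 farthest libraries. *Hbb-bs* and *Alas2* had r = 0.71 (exact permutation p = 0.0449, adjusted 0.110) and rho = 0.86 (exact permutation p = 0.0107, adjusted 0.0471), and r = 0.65 without them. With *Hbb-bt* the control r was 0.80 (exact permutation p = 0.0122, adjusted 0.0439, rho = 0.69 with exact permutation p = 0.0694), and it was 0.03 without the 2 farthest libraries, so this relation rested on them. By r, 3 of the 8 relations of *Hbb-bs* passed the threshold in control and 5 of 8 in the libraries labelled knockout, the latter with *Hba-a2* (r = 0.68, permutation p = 0.0155, adjusted 0.0439, with a rho of 0.60 at permutation p = 0.0443, adjusted 0.139), *Hbb-bt* and *Epb42* besides. The relation with *Hba-a2* had r = 0.21 without the 2 farthest libraries and so rested on them. That with *Hbb-bt* had r = 0.78 (permutation p = 0.00191, adjusted 0.0140) and rho = 0.84 (permutation p = 0.00138, adjusted 0.0101), and r = 0.73 without the 2 farthest. In control *Hba-a2* had r = 0.90 (exact permutation p = 0.00345, adjusted 0.0190) and rho = 0.86 (exact permutation p = 0.0107, adjusted 0.0471), and r = 0.57 without the 2 farthest.

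The other precursor genes gave a range of values. For *Epb42* with *Hbb-bs*, r was 0.68 (permutation p = 0.0160, adjusted 0.0439) in the libraries labelled knockout, and 0.66 without the 2 farthest, while rho was 0.64 (permutation p = 0.0302, adjusted 0.111). In control the pair had r = 0.54 (exact permutation p = 0.167, adjusted 0.228, rho = 0.36, exact permutation p = 0.389). *Slc4a1* and *Hbb-bs* had r = 0.54 (permutation p = 0.0750, adjusted 0.150, rho = 0.52, permutation p = 0.0864) in the libraries labelled knockout and 0.60 (exact permutation p = 0.111, adjusted 0.188, rho = 0.48, exact permutation p = 0.243) in control. *Klf1* and *Hbb-bs* had r = 0.08 (permutation p = 0.815, adjusted 0.815, rho = 0.15, permutation p = 0.647) and 0.57 (exact permutation p = 0.141, adjusted 0.222, rho = 0.29, exact permutation p = 0.501). *Gata1* and *Hbb-bs* had r = 0.51 (permutation p = 0.0905, adjusted 0.166, rho = 0.48, permutation p = 0.115) in the libraries labelled knockout. In control this pair had r = 0.55 (exact permutation p = 0.156, adjusted 0.228, rho = 0.28, exact permutation p = 0.505). Without the 2 farthest libraries, *Slc4a1* and *Klf1* turned negative in control, at -0.57 for each, as did *Epb42* at -0.70 and *Gata1* at -0.80. The differences between these r values were not tested.

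**Figure D4:**
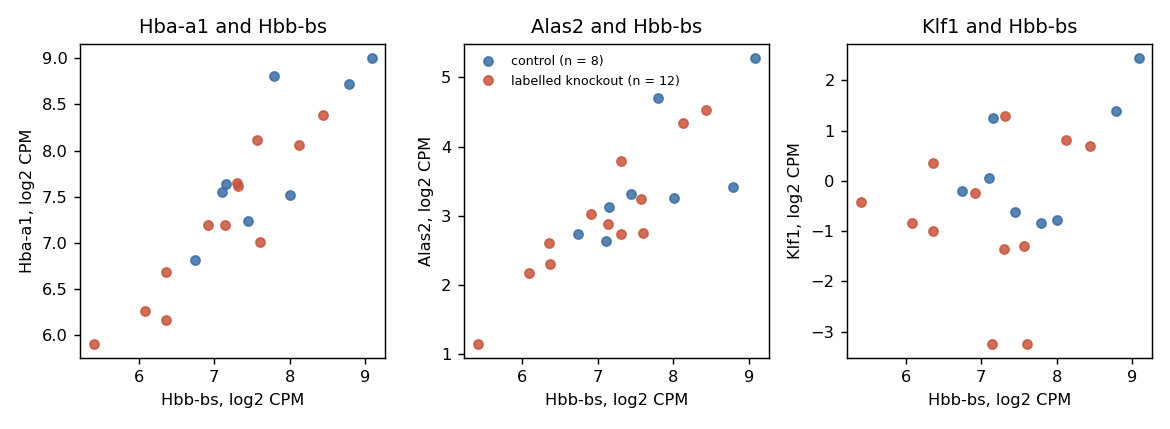
Log2 CPM of *Hba-a1* (left), *Alas2* (middle) and *Klf1* (right) against *Hbb-bs*, one point per library, in control (blue, n = 8) and in the libraries labelled knockout (red, n = 12). *Hba-a1* and *Alas2* follow *Hbb-bs* (r = 0.93 and 0.92 in the libraries labelled knockout), and *Klf1* has r = 0.08 there, with both libraries that lack *Klf1* counts in the middle of the *Hbb-bs* range.

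Over all 36 pairs of the 9 genes, with group means subtracted and n = 20 libraries, Pearson r ran from 0.24 (*Hbb-bs* with *Klf1*) to 0.89 (*Hba-a1* with *Hbb-bs*), with a median of 0.67. As a description, the globins among themselves had a median of 0.76 over 6 pairs and the precursor genes 0.68 over 10 pairs, while globins with precursor genes had 0.62 over 20 pairs. *Epb42* with *Gata1* reached 0.83 and *Epb42* with *Slc4a1* 0.81, and *Slc4a1* with *Klf1* 0.77. *Alas2* had 0.74 to 0.86 with the globins, 0.38 with *Klf1* and 0.41 with *Gata1*, and *Hbb-bt* had 0.85 with *Epb42* and 0.77 with *Hbb-bs*. All points share library sizes, and the genes with few counts carry more counting error. Control replicate 6, high for all 9 genes, enters every pair.

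**Figure D5:**
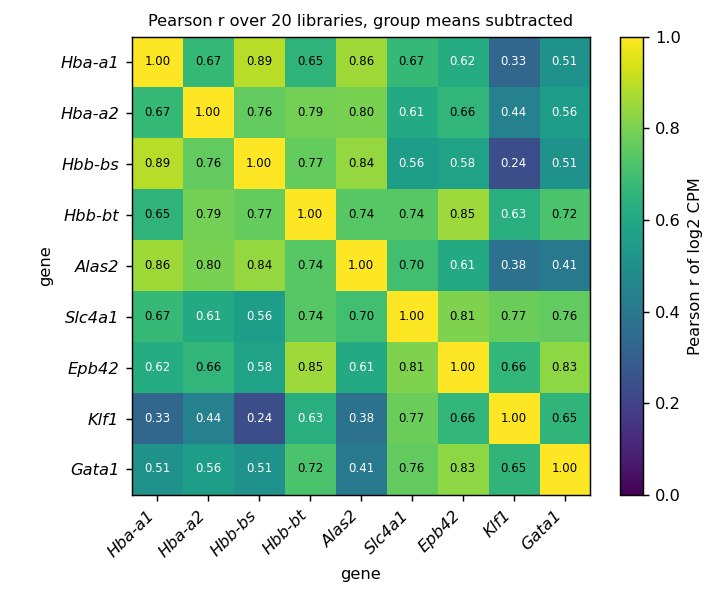
Pearson r of log2 CPM between each pair of the 9 genes over 20 libraries after subtraction of group means, from 0 (dark) to 1 (bright). *Klf1* has its lowest values with the globins and *Alas2* (0.24 to 0.63), and *Epb42*, *Slc4a1* and *Gata1* have 0.76 to 0.83 with one another.

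The genes most like each class were sought among 13951 tested protein-coding genes, the 9 left out, by the same r over 20 libraries. For *Hbb-bs* they included *Retreg1* (r = 0.81), an endoplasmic reticulum receptor for autophagy, *Tent5c* (0.77), a poly(A) polymerase, *Nudt17* (0.68) and *Zbed4* (0.67). For *Klf1* they were *Hemgn* (0.92), a nuclear protein of blood precursors, *Nxpe2* (0.78), *Nkd1* (0.76), *Kel* (0.73), the Kell blood group protein, and *Rrm2* (0.73), a ribonucleotide reductase subunit of dividing cells. Of the genes named here, edgeR called *Retreg1* as lower in the libraries labelled knockout (log2 fold change -0.45, SE 0.11, adjusted p = 0.00715) and *Hemgn* (-2.05, SE 0.71, adjusted p = 0.0407). *Kel* had -2.15 (SE 0.85, adjusted p = 0.0716).

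Other genes of the lineage were read from 5 lists with 60 genes in the table, of which 46 were tested. edgeR called 11 of them lower in the libraries labelled knockout, which is 23.9% of those tested against 11% of all genes, and 1 higher, against 12% of all genes. In the haem synthesis list 4 of 12 were called lower and the median log2 fold change was -0.29. The smallest p belonged to *Slc25a37* (-0.47, SE 0.11, adjusted p = 0.00442), the mitochondrial iron importer mitoferrin, *Fech* (-0.46, SE 0.11, adjusted p = 0.00776), which inserts iron into haem, and *Abcb10* (-0.34, SE 0.09, adjusted p = 0.0101), a mitochondrial transporter.

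In the membrane list 4 of 15 were called lower, with a median of -0.60, led by *Ank1* (-0.80, SE 0.20, adjusted p = 0.00896), the red cell ankyrin, *Epb41* (-0.43, SE 0.12, adjusted p = 0.0150), protein 4.1, and *Tmod1* (-0.68, SE 0.21, adjusted p = 0.0231), which caps actin. Among cytoplasmic and maturation genes 2 of 8 were called lower, *Bpgm* (-0.59, SE 0.13, adjusted p = 0.00389), the enzyme that makes the oxygen-affinity regulator bisphosphoglycerate, and *Hemgn*, with a list median of -0.15. The limit given above for *Hemgn* applies here as well. Of 11 tested factors and receptors, *Bcl11a* (-2.29, SE 0.64, adjusted p = 0.0141), a repressor of embryonic globins that is also a B cell factor, was called lower and *Ldb1* (0.38, SE 0.12, adjusted p = 0.0271), a partner of GATA1 complexes, higher, with a median of 0.17.

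Several of these called genes are also used by other tissues, skeletal muscle among them. The 11 called lower and *Ldb1* had r from -0.23 to 0.42 with *Hbb-bs* over 20 libraries with group means subtracted. Against the summed level of 6 skeletal muscle genes, r was 0.88 for *Ank1*, 0.84 for *Fech*, 0.82 for *Tmod1*, 0.78 for *Sptb*, 0.77 for *Bpgm* and 0.71 for *Epb41*. It was 0.58 for *Cpox*, 0.26 for *Abcb10*, 0.17 for *Slc25a37*, -0.23 for *Hemgn*, -0.49 for *Bcl11a* and -0.50 for *Ldb1*. The 9 red cell genes had -0.34 to -0.18 with the muscle sum. Summed muscle levels were 32472 to 137697 CPM in control and 23702 to 61316 CPM in the libraries labelled knockout. Of the 6 genes, 3 were called lower (*Atp2a1*, *Ckm* and *Mylpf*), against 11% of all tested genes, and none was at 0. The part of muscle content in the list counts was not tested.

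*Ermap*, an erythroblast membrane protein of the membrane list, had a log2 fold change of -1.63 (SE 0.72, adjusted p = 0.104), and it is named here after its value was seen.

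Markers of other cells that the condyle could hold were read beside *Gata1*, since some use it. Of the mast cell genes, 6 of 7 tested were called higher in the libraries labelled knockout, against 12% of all tested genes, and none lower, with *Tpsb2*, a tryptase, at 3.85 (SE 0.77, adjusted p = 0.00246) and *Cpa3*, a carboxypeptidase of mast cell granules, at 3.46 (SE 0.81, adjusted p = 0.00595). Summed mast cell levels were 2.22 to 20.6 CPM in control and 5.82 to 194 CPM in the other group, with none of 9 genes at 0 throughout. *Gata1* and *Cpa3* had r = 0.53 (exact permutation p = 0.176, adjusted 0.228, rho = 0.49, exact permutation p = 0.222) in control and 0.20 (permutation p = 0.527, adjusted 0.552, rho = 0.22, permutation p = 0.5) in the libraries labelled knockout.

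Megakaryocyte genes were present in every library, with summed levels of 9.65 to 34.6 CPM in control and 15.8 to 51.4 CPM in the libraries labelled knockout, and none of 5 tested was called. *Pf4*, platelet factor 4, had a log2 fold change of 0.60 (SE 0.31, adjusted p = 0.159) and *Itga2b*, the platelet integrin chain, 0.76 (SE 0.29, adjusted p = 0.0656). *Gata1* and *Pf4* had r = 0.45 (exact permutation p = 0.261, adjusted 0.302, rho = 0.41, exact permutation p = 0.315) in control and -0.37 (permutation p = 0.234, adjusted 0.286, rho = -0.38, permutation p = 0.229) in the libraries labelled knockout. Eosinophil genes summed to 1.24 CPM or less in control and 4.58 CPM or less in the other group, with at most 67 counts of *Prg2* and 22 of *Epx*, and *Gata1* with *Prg2* had r = 0.35 (exact permutation p = 0.399, adjusted 0.439, rho = 0.02, exact permutation p = 0.963) and 0.56 (permutation p = 0.0592, adjusted 0.130, rho = 0.50, permutation p = 0.101). None of the 8 relations with *Gata1* passed the threshold. The part of these cells in the *Gata1* counts was not tested.

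Marrow content was read from myeloid and lymphoid lists. Neutrophil and precursor genes summed to 5.59 to 155 CPM in control and 14.9 to 858 CPM in the libraries labelled knockout. Of 9 tested, edgeR called 2 higher, against 12% of all tested genes, and none lower. They were *Mpo* (2.63, SE 0.84, adjusted p = 0.0281) and *Prtn3* (2.04, SE 0.66, adjusted p = 0.0293). The median log2 fold change of the list was 2.14. B cell genes summed to 1.85 to 39.3 CPM and 0.959 to 17.1 CPM, with none of 4 called and a median log2 fold change of -0.86. Control replicate 6 had the highest neutrophil (155 CPM), megakaryocyte (34.6 CPM) and proliferation (52.5 CPM) sums of the control libraries but a B cell sum of 1.94 CPM, near the lowest.

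Further lists that could move with blood were read in the same way, beside the 12% of all tested genes called higher and 11% called lower. Macrophage genes of haem recycling had 3 of 6 called higher, namely *Hmox1* (haem oxygenase 1, 0.59, SE 0.15, adjusted p = 0.00854), *Vcam1* (0.90, SE 0.24, adjusted p = 0.0107) and *Siglec1* (1.55, SE 0.44, adjusted p = 0.0157), with sums of 41.9 to 70.6 CPM and 45.7 to 81.9 CPM. Endothelial genes, a measure of vessels, had none of 6 called and sums of 286 to 570.1 CPM and 211 to 441 CPM. Cartilage genes had none of 6 called and sums of 100.4 to 3141 CPM and 1549 to 4886 CPM. Bone genes had 4 of 5 called higher, with *Col1a1* at 2.50 (SE 0.45, adjusted p = 0.00144), *Bglap* at 2.22 (SE 0.58, adjusted p = 0.0101) and *Dmp1* at 1.79 (SE 0.49, adjusted p = 0.0133), and sums of 1202 to 11596 CPM and 3885 to 37599 CPM. Of 5 proliferation genes none was called. The part of bone, marrow and muscle content in the red cell estimates was not tested.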

How the data were processed

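Condylar heads were extracted with TRIzol and sequenced as paired-end reads on an Illumina NovaSeq. The deposited values are raw counts per Ensembl gene, which the authors made by mapping to mm10 and counting with featureCounts. The aligner, annotation release, use of strand and treatment of reads with several positions are not given in the sources used here. Of 54532 genes, 54495 matched GENCODE M21 (GRCm38), which gave symbols, exon lengths and coordinates. All 20 columns had a sample, and replicates are labelled as separate samples, with p-values measuring the spread between them.

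All genes were fitted at once in edgeR 4.0.16 (R 4.3.3) with filterByExpr, TMM scaling and the quasi-likelihood F-test, two-sided, with Benjamini-Hochberg adjustment. SE came from the F statistic, and relations used numpy 2.4.6 with all 40320 pairings for 8 libraries or 100000 resamples for 12. Log2 CPM had a prior count of 2. Alternatives were DESeq2 1.42.0, other scalings and filters, a table of protein-coding genes, a robust fit, a block for the replicate number and omission of each library. Steps were tested on simulated data. Among 190 pairs of libraries, the smallest chi-square per degree of freedom was 32.9 over 16161 genes. The genes and lists were chosen with earlier results of these data known. Named were the 9 genes, up to 3 called genes per direction and list by smallest p, *Gata1*'s companion markers and the 5 genes most like *Hbb-bs* and *Klf1*. Some genes that this rule would name are not reported here. The upstream windows are RefSeq sequences of GRCm38.p6, and coding sequences are the longest open reading frames of GENCODE transcripts. *Ahsp*, *Hbb-b1* and *Hbb-b2* were listed and not analysed here. No sequencing batch or sex of single animals was in the labels.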

Additional observations from a re-analysis of the deposited data

Results flagged for a closer look

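Control replicate 6 stood far above the other control libraries for 5 genes, by Dixon's ratio of the gap to the group's range (critical value 0.526 for 8 samples). *Hba-a2* was 112 CPM there against 50.3 CPM in the next control library (ratio 0.577). *Hbb-bt* was 121 CPM against 39.6 CPM (0.752), and *Klf1* was 5.32 CPM against 2.51 CPM (0.577). *Slc4a1* was 75.4 CPM against 16.9 CPM (0.783), and *Epb42* was 8.57 CPM against 1.87 CPM (0.782). In all, 12 measures were examined. For normally distributed values, chance exceeds the critical value in about 1 of 20 groups. The ratio was taken in CPM and not in log2 CPM, in which high values stand closer together, so that rate may not hold here. The genes also vary together and are not separate tests. For *Hba-a1*, *Hbb-bs*, *Alas2* and *Gata1* the same library was also the highest without passing this criterion. The 12 libraries labelled knockout were too many for this criterion.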

How the results depend on the processing

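All 217 alternative estimates of the 7 tested genes stayed below 0, and 213 stayed on the same side of the threshold. Red cell genes called were 0 by edgeR and 1 by DESeq2, and 0 to 2 with single libraries left out. The numbers of other erythroid genes called (12) ran from 8 to 14 without single libraries. Scaling by library totals alone moved the median log2 fold change of all genes to 0.12 and split the calls into 2192 higher and 855 lower, against 1918 and 1755, and no red cell gene was called. With the replicate number as a block in 16 libraries, other erythroid genes called fell to 5 and calls over all genes to 1786, against 9 and 3280 in the same 16 libraries without it. Same-numbered samples had r from -0.36 to 0.17, 2 of 8 pairs were over 0.1 and 0 of 8 controls correlated best with their own number, so the numbers were not taken to pair the animals. Calls over all genes ran from 2551 to 4181 without single libraries. Of 22 relations, 8 passed, and 2 passed without the 2 libraries farthest from the median. Mean globin shares without single libraries ran from 0.0477% to 0.0611% in control and from 0.0321% to 0.0389% in the libraries labelled knockout. The causes were not tested. Genes at or under 3 counts in some libraries, such as *Gata1*, are limited by depth.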
